A study of Mus musculus with 8 samples.

Results

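The circadian clock genes Per1, Per2, Per3, Cry1, Cry2, Arntl, Clock, Nr1d1, Dbp and Ciart were followed in the left ventricle of mice labelled as lacking the adhesion receptor ADGRF5 in cardiomyocytes. These 10 genes are a fixed list of core clock and clock output genes, taken by symbol from the 55487 gene identifiers of the count tables, and all 10 were among the 14695 genes abundant enough to test. The list was chosen by a measured value, the Per1 level of KO against control males. Every comparison that contains the male difference is therefore a description, its counts and p-values included. Only the contrasts in females and of males against females leave that difference out. Their error terms were estimated over all libraries, male ones included, so these tests are not fully independent of that choice. Groups of 2 animals each were measured, namely male KO (replicates 1 and 2), male control (replicates 1 and 2), female KO (replicates 3 and 4) and female control (replicates 3 and 4). All animals were 12-week-old C57BL/6 mice. KO animals are titled CM-ADGRF5-KO and control animals are titled NLC with the genotype wild-type. The labels name no Cre driver and no time of day of collection. The mRNA of each ventricle was sequenced as 1 library, and reads were counted per gene.

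The clock is a feedback loop of transcription. The proteins of Clock and Arntl (BMAL1) pair and switch on genes that carry an E-box, among them the Per and Cry genes, Nr1d1, Dbp and Ciart, and the PER and CRY proteins then shut off the pair. The product of Nr1d1 (REV-ERBα) represses Arntl through RORE elements, so Arntl and many of the E-box genes peak at roughly opposite times of day. In heart muscle this loop sets daily rhythms of metabolism and of ion channel genes.

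The elements of this loop can be read in the promoters of some of these genes. The RefSeq promoter table (GRCm38.p6, 250 bases before to 50 after each start) held 9 of the 10 genes, Per2 being the exception. An E-box, CACGTG, stood in 3 of the 9 (Per1, Cry1 and Ciart), against 7.15% of 32851 promoters searched on both strands. The related CACGTT stood in Cry1, Cry2 and Nr1d1, against 4.68% of all promoters. A D-box, the site bound by DBP and searched as TTATGTAA or TTACGTAA, stood in Per3 alone, against 1.06%. A RORE core, TAGGTCA or TGGGTCA, stood in Arntl alone, 31 bases after a start, against 6.45%. A cAMP response element, TGACGTCA, was in none of the 9 windows, against 1.79%. No motif searched overlapped another in these windows, and a match is a run of letters, not a measured binding site. Shown are the stretches of the 4 genes whose levels varied most between libraries or that held the rarest motif, 5′ to 3′ on the strand of the gene, with the motif in capitals. The sequences come from Per1 at chr11:69098763-69098808 (plus strand), Ciart at chr3:95882255-95882356 (minus strand), Per3 at chr4:151044804-151044882 (minus strand) and Arntl at chr7:113207533-113207555 (plus strand).
Per1, E-box: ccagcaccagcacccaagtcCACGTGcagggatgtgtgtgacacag
Ciart, E-boxes: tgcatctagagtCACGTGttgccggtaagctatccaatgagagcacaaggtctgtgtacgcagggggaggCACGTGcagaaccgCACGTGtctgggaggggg
Per3, D-boxes: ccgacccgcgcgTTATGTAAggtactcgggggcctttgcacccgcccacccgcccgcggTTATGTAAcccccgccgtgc
Arntl, RORE core: gcagaaagTAGGTCAgggacgga
Counted from the RefSeq starts of the table, which for Per1 lies inside the GENCODE span of the gene, the Per1 E-box begins 166 bases before the start, the 3 Ciart E-boxes 116, 58 and 44 bases before theirs, and the 2 Per3 D-boxes 205 and 158 bases before.

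The libraries held 25.33 to 39.62 M reads in genes, of which 17.4% to 21.9% were mitochondrially encoded. The targeted gene, Adgrf5, stood at 224 ± 15.7 reads per M gene reads (CPM) in KO and 233 ± 17.4 CPM in control ventricles (SD, n = 4 each), so its level did not separate the labels. In such bulk tissue fewer cells of a type and less RNA per cell cannot be told apart. The defining cardiomyocyte markers were present throughout, with a summed level of 50710 to 61620 CPM in KO and 47100 to 58030 CPM in control ventricles for 6 of 6 markers. No pair of libraries within a genotype agreed within sampling noise (chi-square per degree of freedom 15.2 to 41.4). By the library numbers in the labels both male KO samples precede both male controls, while the female samples of the 2 genotypes alternate in part. In males genotype and anything that followed this numbering, time of collection included, cannot be told apart. All male samples also precede all female samples in these numbers. Sex and anything that followed the numbering therefore cannot be told apart either.

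The level per kilobase of exon puts the output genes at the top of the list and the activators at the bottom. Over the 8 libraries Dbp averaged 79.05 CPM per kb, Nr1d1 59.95, Per1 18.22, Ciart 8.62, Cry2 7.88, Per2 5.15, Per3 5.14, Cry1 2.80, Clock 1.93 and Arntl 0.503 CPM per kb. The ranges of neighbours in this order overlapped for Dbp and Nr1d1, for Per1 and Ciart, for Ciart and Cry2, for Cry2 and Per2, for Per2 and Per3, and for Cry1 and Clock. Nr1d1 (50.3 to 67.8 CPM per kb) lay clear of Per1 (8.16 to 27.9), Per3 (4.02 to 6.38) clear of Cry1 (2.29 to 3.15), and Clock (1.39 to 2.40) clear of Arntl (0.235 to 0.814). Arntl rested on 47 to 177 reads per library and every other clock gene on at least 198.

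**Figure D1:**
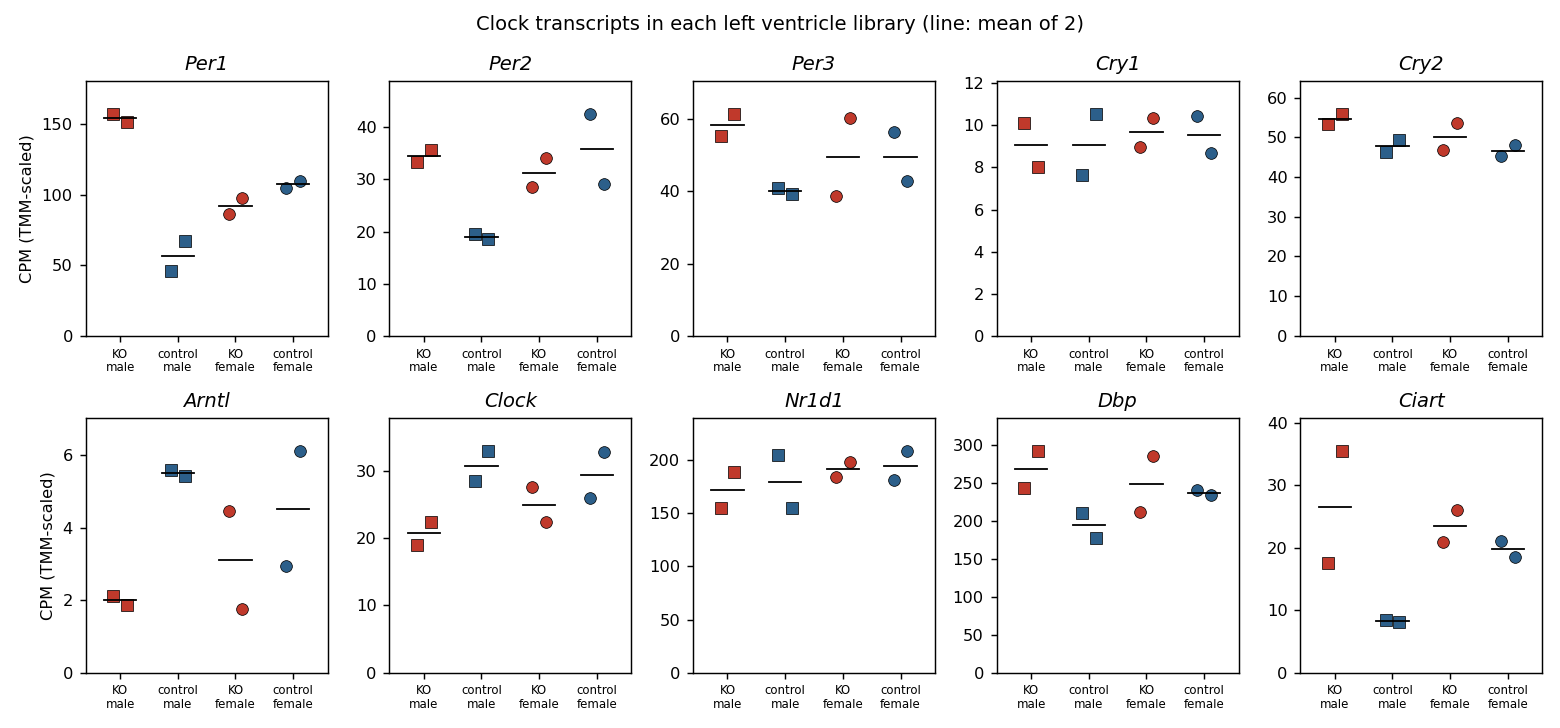
Each panel shows 1 clock gene in CPM with library sizes scaled by TMM. Points are single ventricles of male KO, male control, female KO and female control mice, and the line is the mean of 2. In males KO and control points of Per1, Per2, Per3, Cry2, Dbp and Ciart are apart with KO on top, those of Arntl and Clock are apart with KO below, and in females only the Per1 points are apart.

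The Period genes encode the proteins that, with CRY, close the loop. Per1 (ENSMUSG00000020893, chromosome 11, 69095217 to 69109960 of GRCm38, plus strand) stood at 157 and 151 CPM in the male KO libraries, against 46.0 and 67.3 CPM in the male controls. It stood at 86.6 and 97.9 CPM in the female KO libraries, against 105 and 110 CPM in the female controls. The 2 male KO libraries were thus the highest and the 2 male controls the lowest of all 8, and the female libraries lay between them with both KO below both controls. The male log2 fold change, KO over control, was 1.45 (SE 0.158). The female one was -0.22 (SE 0.154, 95% interval -0.57 to 0.13, edgeR adjusted p = 0.978).

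Per2 (ENSMUSG00000055866, chromosome 1, 91415982 to 91459324, minus strand) stood at 33.3 and 35.7 CPM in male KO ventricles, against 19.5 and 18.5 CPM in male controls. In females it stood at 28.5 and 34.1 CPM in KO, against 42.5 and 29.2 CPM in controls. The male controls were the lowest of the 8 libraries and female control 3 the highest, and the female groups overlapped. Per2 had a log2 fold change of 0.86 (SE 0.171) in males and -0.20 (SE 0.167, 95% interval -0.57 to 0.18) in females.

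Per3, the Period member least needed for rhythm, lies at 151003652 to 151044665 on the minus strand of chromosome 4 (ENSMUSG00000028957). It was measured at 55.2 and 61.3 CPM in male KO, against 40.9 and 39.4 CPM in male control ventricles, and at 38.7 and 60.2 CPM in female KO, against 56.3 and 42.8 CPM in female control ventricles. One female of each genotype was near the male KO level (KO 4 and control 3), and the other was near the male control level (KO 3 and control 4). Per3 had a log2 fold change of 0.54 (SE 0.195) in males and -0.01 (SE 0.195, 95% interval -0.44 to 0.43) in females.

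The cryptochromes, the partners of PER in repression, differed little between groups. Cry1 (ENSMUSG00000020038, chromosome 10, 85131700 to 85185064, minus strand) averaged 9.08 ± 1.49 CPM in male KO and 9.09 ± 2.04 CPM in male control ventricles, and 9.66 ± 0.951 CPM in female KO and 9.55 ± 1.23 CPM in female control ventricles (SD, n = 2 each). Its groups overlapped in both sexes. Cry2 (ENSMUSG00000068742, chromosome 2, 92403646 to 92434043, minus strand) stood at 53.5 and 55.8 CPM in male KO, against 46.4 and 49.2 CPM in male controls, and at 46.8 and 53.6 CPM in female KO, against 45.2 and 48.0 CPM in female controls. The Cry2 log2 fold change was 0.19 (SE 0.0961) in males and 0.11 (SE 0.0962, 95% interval -0.11 to 0.32) in females. Cry2 shares exonic bases with D930015M05Rik on the opposite strand, and since the strand setting of the counting was not given in the sources used here, reads of the pair may not be separated.

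The activators were lower in KO males, where the Period genes were higher. Arntl (ENSMUSG00000055116, chromosome 7, 113207465 to 113314126, plus strand) stood at 2.12 and 1.87 CPM in the male KO libraries, against 5.58 and 5.43 CPM in the male controls. In females it stood at 4.46 and 1.77 CPM in KO, against 2.94 and 6.12 CPM in controls. The males fell into a low KO pair and a high control pair, whereas each female group held 1 low and 1 high library. The log2 fold change was -1.46 (SE 0.435) in males and -0.53 (SE 0.425) in females, with a female 95% interval of -1.49 to 0.42 that includes the male value. Arntl shares exonic bases with Gm45355 on the other strand.

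Clock (ENSMUSG00000029238, chromosome 5, 76209868 to 76304792, minus strand), the partner of BMAL1, stood at 19.0 and 22.4 CPM in male KO ventricles, against 28.5 and 33.0 CPM in male controls. In females it stood at 27.6 and 22.4 CPM in KO, against 26.0 and 32.8 CPM in controls. The 4 libraries highest in Clock (KO 3 and controls 1, 2 and 4) were the 4 highest in Arntl. For Clock the log2 fold change was -0.57 (SE 0.156) in males and -0.23 (SE 0.155, 95% interval -0.58 to 0.12) in females.

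Among the repressor and output genes, Nr1d1 overlapped between the genotypes in both sexes. It (ENSMUSG00000020889, chromosome 11, 98767932 to 98775333, minus strand) stood at 155 and 188 CPM in male KO, against 205 and 155 CPM in male controls, and at 184 and 199 CPM in female KO, against 181 and 209 CPM in female controls. The log2 fold changes were -0.07 (SE 0.151) in males and -0.03 (SE 0.151, 95% interval -0.37 to 0.31) in females. Nr1d1 and Thra, a thyroid hormone receptor gene, share exonic bases on opposite strands. Reads of the shared bases may have been counted for either gene or set aside as ambiguous.

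Dbp (ENSMUSG00000059824, chromosome 7, 45705088 to 45710203, plus strand), the D-box factor and a direct clock output, stood at 243 and 292 CPM in male KO ventricles, against 211 and 177 CPM in male controls. In females it stood at 211 and 285 CPM in KO, against 240 and 234 CPM in controls, so the 2 female KO libraries lay on either side of the controls. For Dbp the log2 fold change was 0.47 (SE 0.155) in males and 0.07 (SE 0.155, 95% interval -0.28 to 0.41) in females. Dbp shares exonic bases with Sphk2 on the opposite strand.

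Ciart (ENSMUSG00000038550, chromosome 3, 95878503 to 95882251, minus strand) encodes CHRONO, a repressor of the CLOCK and BMAL1 pair, and its promoter holds the 3 E-boxes printed above. It stood at 17.5 and 35.5 CPM in male KO ventricles, against 8.43 and 8.08 CPM in male controls, the lowest of all libraries. In females it stood at 20.9 and 26.0 CPM in KO, against 21.1 and 18.5 CPM in controls. The log2 fold change was 1.68 (SE 0.286) in males, the largest of the 10 genes, and 0.24 (SE 0.271, 95% interval -0.37 to 0.85) in females.

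**Figure D2:**
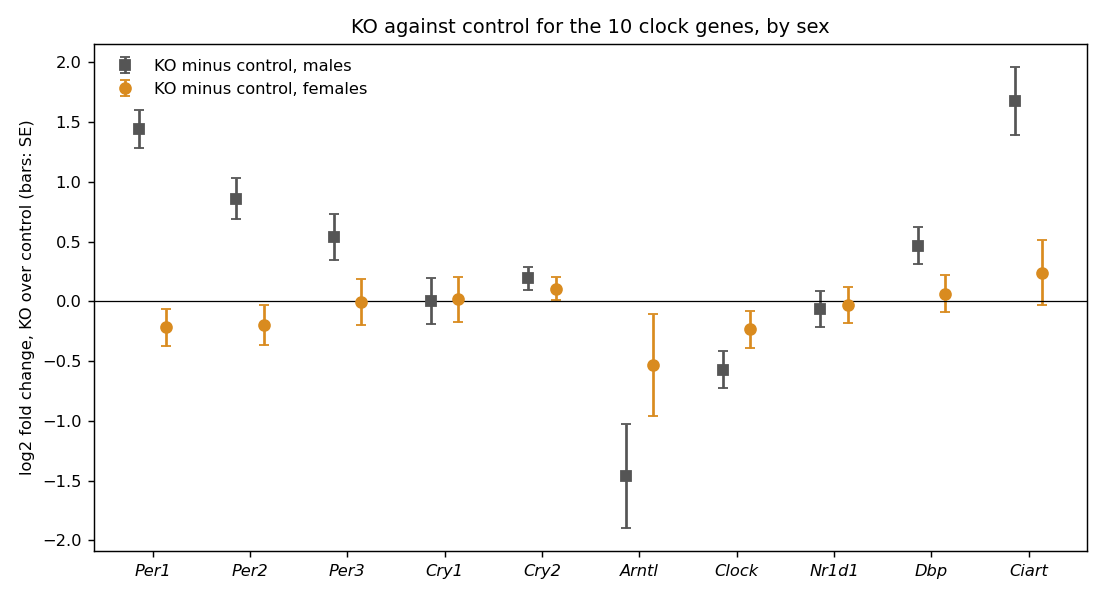
The log2 fold change of KO over control is plotted for each clock gene in males (squares) and in females (circles), with bars of 1 SE from the edgeR fit. Male values run from -1.46 (Arntl) to 1.68 (Ciart) and female values from -0.53 (Arntl) to 0.24 (Ciart).

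Within females, 0 of the 10 clock genes differed between KO and control by edgeR (adjusted p 0.978 to 0.999), and 0 did at an unadjusted p under 0.05, by DESeq2 or by limma voom. Of all tested genes 0% passed by edgeR in this contrast, 5.12% had an unadjusted p under 0.05, and 0.116% passed by DESeq2. Per1 was the only clock gene whose 2 KO and 2 control females did not overlap, where 34.4% of all genes were separated in this way, 17.2% with KO below. The median log2 fold change was -0.02 over the clock genes and -0.01 over all tested genes.

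Within males, the contrast that led to the list, 6 clock genes were higher in both KO than in both control libraries and 2 were lower, where 25.1% and 25.9% of all tested genes were separated in these directions (50.9% together). By edgeR 1 of the 10, Per1, passed the adjusted threshold, against 0.0408% of all genes, and 7 of 10 had an unadjusted p under 0.05, against 17.5%. DESeq2 called 5 of 10 (Per1, Per2, Arntl, Clock and Ciart), against 2.7% of the genes to which it gave an adjusted p. The edgeR count was 0 when control 1, KO 2, KO 3 or KO 4 was left out, 2 when control 3 was, and 3 when control 4 was. Nothing is read from these counts, because the same contrast chose the genes.

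Across both sexes, a comparison that contains those male libraries, 0 of the 10 passed by edgeR (0.102% of all genes did) and 3 had an unadjusted p under 0.05, against 11.9%. DESeq2 called 0, against 1.01% of all genes. The log2 fold changes with sex as an additive term were 0.61 (SE 0.291) for Per1, 0.93 (SE 0.297) for Ciart, -0.99 (SE 0.326) for Arntl and -0.40 (SE 0.119) for Clock, and for all 10 genes the 4 KO libraries overlapped the 4 controls, where 6.25% of tested genes did not overlap (3.22% with KO higher and 3.03% with KO lower). The male KO effect minus the female one was 1.66 (SE 0.220) for Per1, 1.44 (SE 0.392) for Ciart, 1.05 (SE 0.239) for Per2 and -0.93 (SE 0.606) for Arntl on the log2 scale. By edgeR 0 of 10 clock genes and 0% of all genes passed for this difference, with 3 of 10 and 7.46% at an unadjusted p under 0.05. DESeq2 called Per1, Per2 and Ciart, against 0.116% of genes. These values also contain the contrast that chose the genes.

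Male and female ventricles were compared over both genotypes, in a fit in which a KO effect that differs between the sexes counts as error. Sex and the order of the library numbers cannot be told apart in this comparison. By edgeR 0 of the 10 clock genes differed (adjusted p 0.457 to 0.953), and 0 had an unadjusted p under 0.05, where 0.299% and 12.8% of all tested genes did. DESeq2 and voom also called 0 of the 10. Log2 fold changes, male over female, ran from -0.51 (Ciart, SE 0.296, 95% interval -1.16 to 0.15) to 0.08 (Cry2, SE 0.0682, interval -0.07 to 0.23). Per1 averaged 105 CPM in males and 99.8 CPM in females, while its fitted log2 fold change was -0.08 (SE 0.290, interval -0.73 to 0.56), so that the mean and the fit differ in sign. For all 10 genes the male and female libraries overlapped, where 6.87% of tested genes did not overlap (3.84% with males higher and 3.03% with males lower).

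The relation of Arntl to the other clock genes was then followed over the 8 libraries. Arntl and many of the E-box genes peak at roughly opposite times of day. Clock ran with Arntl (Pearson r = 0.91, exact two-sided permutation p = 0.00238, adjusted over 9 relations 0.0214, Spearman rho = 0.83, permutation p = 0.0154, adjusted 0.098). Per3 ran opposite to Arntl (r = -0.93, exact permutation p = 0.0111, adjusted 0.0335, rho = -0.71, permutation p = 0.0576, adjusted 0.15), and so did Dbp (r = -0.82, exact permutation p = 0.0112, adjusted 0.0335, rho = -0.81, permutation p = 0.0218, adjusted 0.098). These 3 of 9 relations passed by r, and 0 passed by rho. The r was -0.75 for Cry2, -0.72 for Ciart and -0.71 for Per2, each with an adjusted exact permutation p of 0.0783, and -0.68 for Per1 with an adjusted exact permutation p of 0.0842. It was -0.27 for Cry1 (adjusted exact permutation p = 0.54) and 0.16 for Nr1d1 (0.666).

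Each of these values includes the male difference that chose the genes, and the libraries share genotype and sex, so the p-values describe these libraries. Without KO 2 and KO 4, the libraries farthest from the Arntl median, r was 0.93 for Clock, -0.86 for Per3 and -0.59 for Dbp, and 0 of 9 relations passed over the 6 libraries left. The relation of Clock was as strong without these libraries and that of Dbp was weaker. Leaving out control 1, control 2, control 3 or KO 3 gave a count of 0, KO 2 or KO 4 a count of 1, and control 4 a count of 5. Taken as deviations from the 4 sex by genotype means, which removes the male group difference, r was -0.98 for Per3, -0.89 for Per2, 0.75 for Clock, -0.67 for Dbp and -0.18 for Per1. Arntl varied little within the male groups, at 1.128 and 0.954 log2 CPM in KO and 2.499 and 2.458 in controls. In females it stood at 2.179 and 0.876 log2 CPM in KO and 1.587 and 2.63 in controls. These r values thus rest mainly on the KO pair and the control pair of females. With 2 libraries per group the smallest exact sign-flip p for these deviations is 0.125, so none could pass. Single sexes hold 4 libraries, too few for a value.

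**Figure D3:**
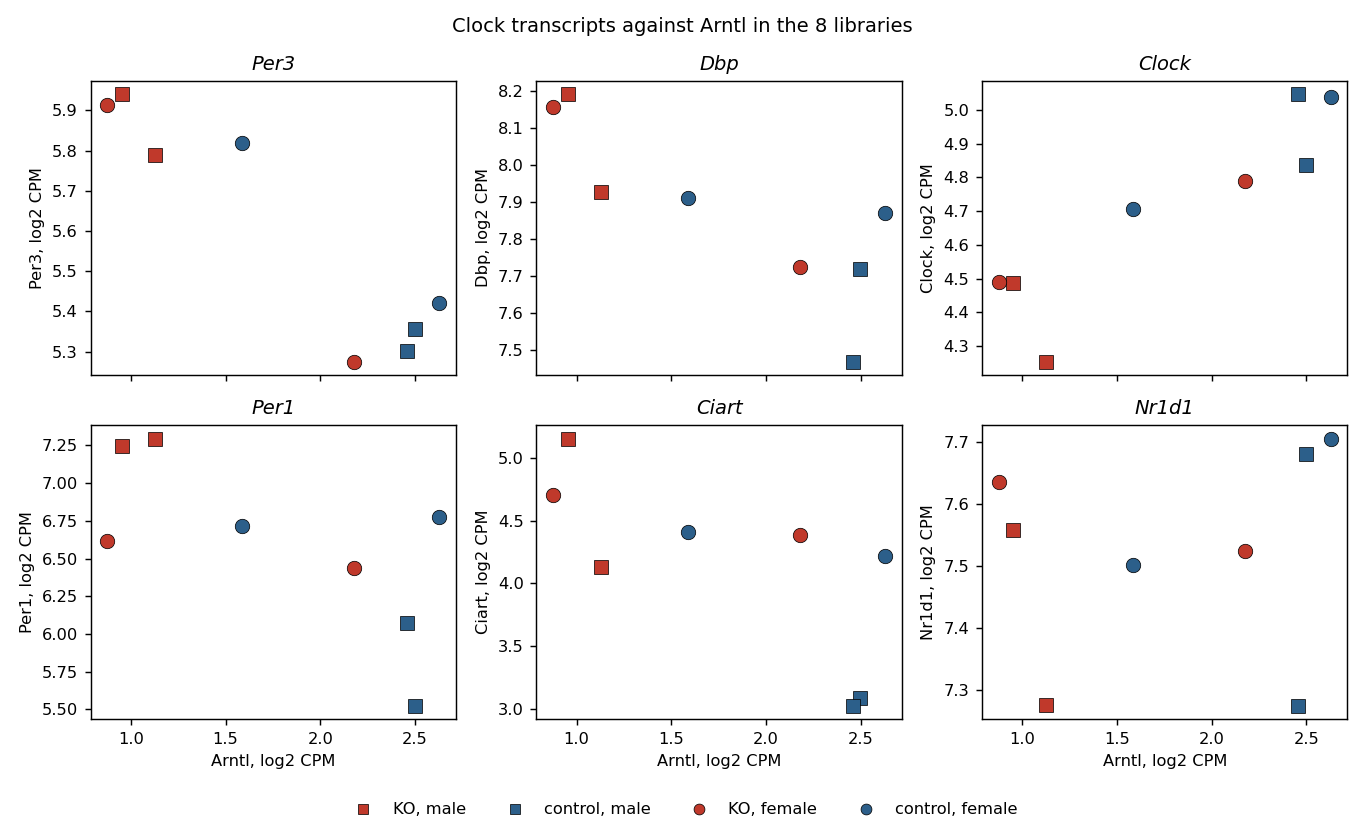
The log2 CPM of Per3, Dbp, Clock, Per1, Ciart and Nr1d1 is plotted against the log2 CPM of Arntl, 1 point per library, with squares for males, circles for females, red for KO and blue for control. Per3 and Dbp run downward and Clock upward over males and females alike, and Per1 has both male KO points on top and both male controls at the bottom.

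For each library the mean centred log2 CPM of Arntl, Clock and Npas2, a paralog of Clock, was subtracted from that of Per2, Per3, Nr1d1, Dbp and Ciart. This difference was 0.34 and 0.823 in the male KO libraries, against -0.65 and -0.989 in the male controls. In females it was -0.338 and 0.751 in KO, against 0.494 and -0.43 in controls. The 8 libraries thus split into 4 above 0 (KO 1, KO 2, KO 4 and control 3) and 4 below (KO 3 and controls 1, 2 and 4), which follows genotype in males and crosses it in females. Centred Per1 stood at 0.71 and 0.658 in male KO, against -1.061 and -0.51 in male controls, and at -0.148 and 0.029 in female KO, against 0.131 and 0.192 in female controls. Female KO 3 and KO 4, far apart in the difference, stood close together in Per1. The part of collection time in these values was not tested, since the labels give none.

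Some markers of other tissue also ran with Arntl, a pattern noticed after the values were seen. The 4 libraries highest in Arntl (KO 3 and controls 1, 2 and 4) were also the 4 highest in Myl7, an atrial myosin light chain, at 40.7 to 983 CPM against 0.265 to 8.75 CPM in the other 4. They were the 4 highest in Myl4 (50.4 to 1020 against 2.23 to 13.98 CPM) and in Sln (6.60 to 222 against 0.0265 to 1.35 CPM), atrial transcripts too, but not in Nppa, which shared 2 of the 4. The same held for Adipoq and Cfd of fat cells, while Plin1 shared 3 of the 4, and for Dcn and Pdgfra of fibroblasts, while Col1a1 and Lum shared 2 of the 4. In all it held for 7 of 33 tested markers, and each of the 4 erythroid markers shared 1 of the 4. The share of all tested genes with the same 4 highest libraries was not counted, so whether 7 of 33 is unusual is not known. The summed level of the 4 atrial markers was 359.5 to 1436 CPM in KO and 381 to 6003 CPM in control ventricles. Most of that sum was Nppa in each library, such as 864 of 867.5 CPM in KO 1. The adipocyte markers summed to 1.02 to 9.90 CPM in KO and 1.11 to 26.3 CPM in controls. The fibroblast markers summed to 527.8 to 731.5 CPM in KO and 594.3 to 708.8 CPM in controls. With the level of Myl7, Myl4 and Sln as a covariate, the log2 fold change over both sexes was -0.70 (SE 0.217) for Arntl, 0.50 (SE 0.285) for Per1 and 0.85 (SE 0.291) for Ciart. The 3 markers of this covariate share their 4 highest libraries with Arntl, and Nppa was left out of it. The covariate thus follows Arntl by its choice of markers, and nothing about atrial tissue is read from these values. The part of atrial, fat or connective tissue in the Arntl levels was not tested.

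**Figure D4:**
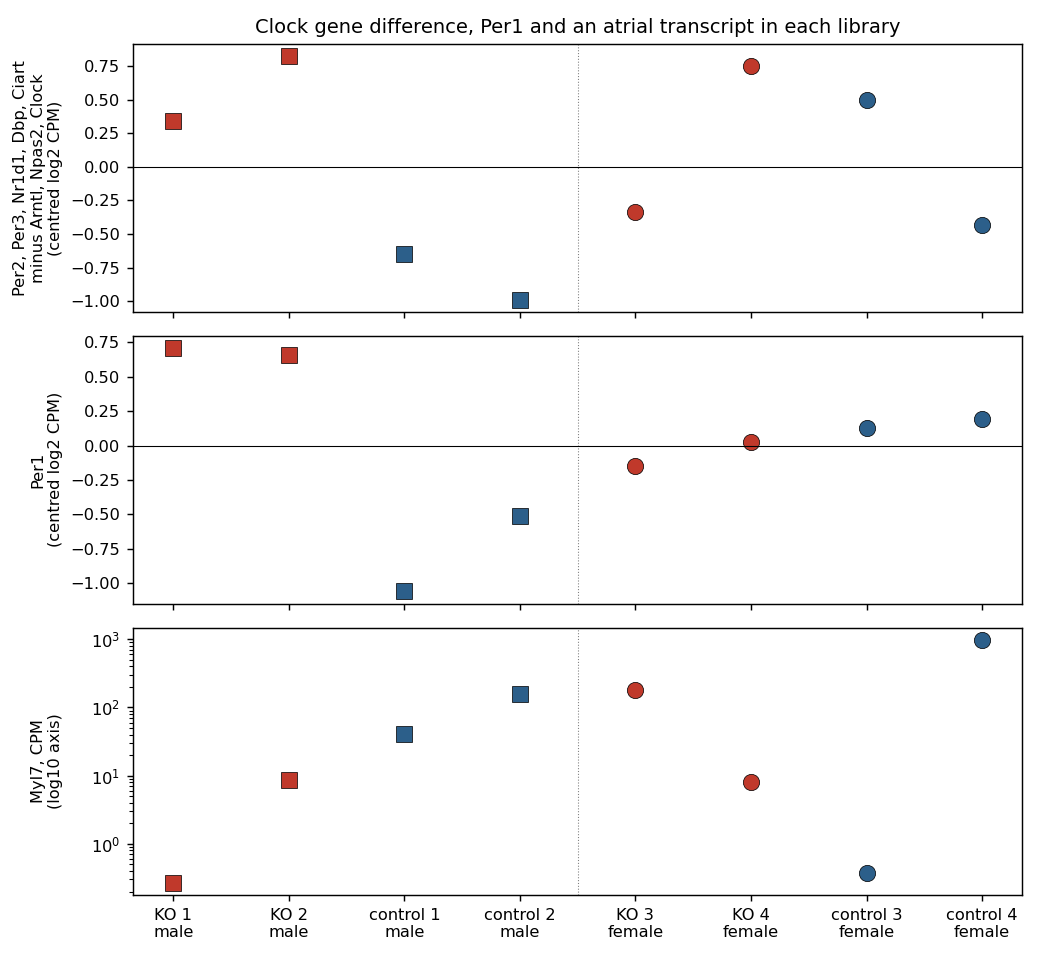
For each library the panels show the difference between the 5 repressor and output genes and the 3 activator genes, the centred log2 CPM of Per1, and Myl7 in CPM on a log10 axis. Squares are males, circles females, red KO and blue control. The 4 libraries with a difference below 0 have Myl7 at 40.7 CPM or more and the other 4 at 8.75 CPM or less, and Per1 does not follow this split in females.

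Other clock genes were described by 2 lists, one of further core genes and modifiers (17 of 18 tested, Fbxl21 being too low) and one of clock outputs (13 of 13 tested). By edgeR 0 of these 30 passed for KO against control in females, in males or over both sexes. At an unadjusted p under 0.05 there were 1 in females, 7 in males and 6 over both sexes, where 5.12%, 17.5% and 11.9% of all tested genes had one, and DESeq2 called 0, 2 and 0, against 0.116%, 2.7% and 1.01%. The median log2 fold change of the core list was -0.02 in females, -0.13 in males and -0.12 over both sexes, and that of the outputs 0.04, 0.05 and 0.08, where the medians over all tested genes were -0.01, 0.01 and -0.01. Over both sexes, core members with small p included Fbxw11, a beta-TrCP ubiquitin ligase subunit, at -0.22 (SE 0.0717), and the repressor Bhlhe41 at 0.27 (SE 0.108). Of the outputs, Usp2, a deubiquitinase, was at 0.26 (SE 0.0754), the cell cycle kinase gene Wee1 at 0.25 (SE 0.116) and the tetraspanin Tspan4 at 0.23 (SE 0.119). Usp2 was above every control in every KO library, at 148 to 177 CPM against 124 to 143 CPM. Of all tested genes 3.22% were separated in this direction over both sexes.

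Between the sexes 2 of these 30 genes passed by edgeR, where 0.299% of all tested genes did. Both were higher in males, among them Pdk4. Pdk4, a kinase that restrains glucose oxidation, stood at 166 to 306 CPM in males and 83.1 to 126 CPM in females (1.29, SE 0.196, edgeR adjusted p = 0.0264). Pdk4 was higher in 4 of 4 males than in any female, as were 3.84% of all tested genes. The count was 0 when control 1, KO 3 or KO 4 was left out, and 1 when control 2, KO 1 or KO 2 was. Small p-values also belonged to Nr1d2, the REV-ERBβ gene, at -0.18 (SE 0.0804), Csnk1e, a kinase of PER, at 0.15 (SE 0.0692), Coq10b at -0.26 (SE 0.0799) and Dtx4 at 0.38 (SE 0.114), which did not pass.

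Per1 is also induced directly by glucocorticoids and by cAMP, and genes that share these inducers were set beside it. In males 10 of 12 glucocorticoid-responsive genes had a positive log2 fold change, KO over control (median 0.63), and in females 4 of 12 (median -0.08). In males 15 of 16 cAMP and immediate early genes were positive (median 0.44), and in females 4 of 16 (median -0.29). Of all 14695 tested genes 7554 were positive in males (median 0.01) and 6949 in females (median -0.01). The male KO libraries differed from each other in the immediate early list. Its mean centred log2 CPM was 0.647 in KO 1 and -0.005 in KO 2, against -0.139 and 0.058 in the male controls. Only KO 1 thus lay above the male controls, and KO 2 lay between them. The mean centred log2 CPM of the glucocorticoid list was 0.335 and 0.386 in the male KO libraries, against -0.359 and -0.019 in the male controls. By edgeR 0 of these 28 genes passed in males, in females, over both sexes, between the sexes or for the difference between the male and female effects. In males 8 of 12 glucocorticoid and 4 of 16 immediate early genes had an unadjusted p under 0.05, against 17.5% of all tested genes. DESeq2 called 5 (Tsc22d3, Dusp1, Mt2, Cdkn1a and Nfkbia) and 1 (Ier3), against 2.7%. In females 2 glucocorticoid and 5 immediate early genes had an unadjusted p under 0.05, against 5.12%, and DESeq2 called 1 and 0, against 0.116%. For the difference between the male and female effects 6 and 5 had an unadjusted p under 0.05, against 7.46%, and DESeq2 called 3 and 0, against 0.116%. These male values share their libraries with the Per1 difference that chose the clock genes.

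Dusp1, a phosphatase induced by both stimuli, was, like Per1, higher in KO than in control males and lower in KO than in control females. It stood at 129 and 97.9 CPM in male KO, against 65.7 and 79.7 CPM in male controls, and at 56.0 and 58.0 CPM in female KO, against 84.5 and 93.4 CPM in female controls. The KO animals were above the controls in males (0.64, SE 0.141) and below them in females (-0.64, SE 0.141, edgeR adjusted p = 0.775), and DESeq2 called the female difference (adjusted p = 0.0211). Dusp1 was singled out after its values were seen, and the share of all tested genes with this opposite order was not counted. Per1 itself was not part of either list.

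Over both sexes the glucocorticoid genes with the smallest p were the cell cycle inhibitor Cdkn1a (0.65, SE 0.169), Fkbp5 (0.36, SE 0.121) and Zbtb16 (0.71, SE 0.251). Of the immediate early genes they were Ier3 (0.46, SE 0.102), Fosb (0.35, SE 0.176) and Btg2 (-0.22, SE 0.121). None of the 6 passed by edgeR, and Cdkn1a and Ier3 passed by DESeq2. Within the glucocorticoid list single genes differed in pattern. Fkbp5, a chaperone of the receptor, stood at 25.8 and 27.2 CPM in male KO, against 18.1 and 27.3 CPM in male controls, and at 32.1 and 35.4 CPM in female KO, against 23.3 and 24.8 CPM in female controls. Tsc22d3, a mediator of glucocorticoid action, stood at 99.8 and 94.6 CPM in male KO, against 53.2 and 77.5 CPM in male controls, and at 66.8 and 80.5 CPM in female KO, against 91.3 and 90.1 CPM in female controls. Fkbp5 was thus higher in both KO than in both control females, as were 17.1% of all tested genes. Tsc22d3, like Sgk1, Nfkbia and Dusp1, was instead higher in KO males and lower in KO females with no overlap in either sex. In these directions 25.1% of all tested genes were separated in males and 17.2% in females. The share of all tested genes separated in both ways at once was not counted, so whether this pattern is unusual is not known. Tsc22d3, Sgk1, Nfkbia and Dusp1 were picked after their values were seen. Between the sexes Angptl4 (1.48, SE 0.375), Cdkn1a (-0.48, SE 0.168) and Fkbp5 (-0.22, SE 0.121), and Fosb (0.73, SE 0.176), Nr4a1 (1.19, SE 0.303) and Ier3 (-0.40, SE 0.102), had the smallest p without passing by edgeR.

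**Figure D5:**
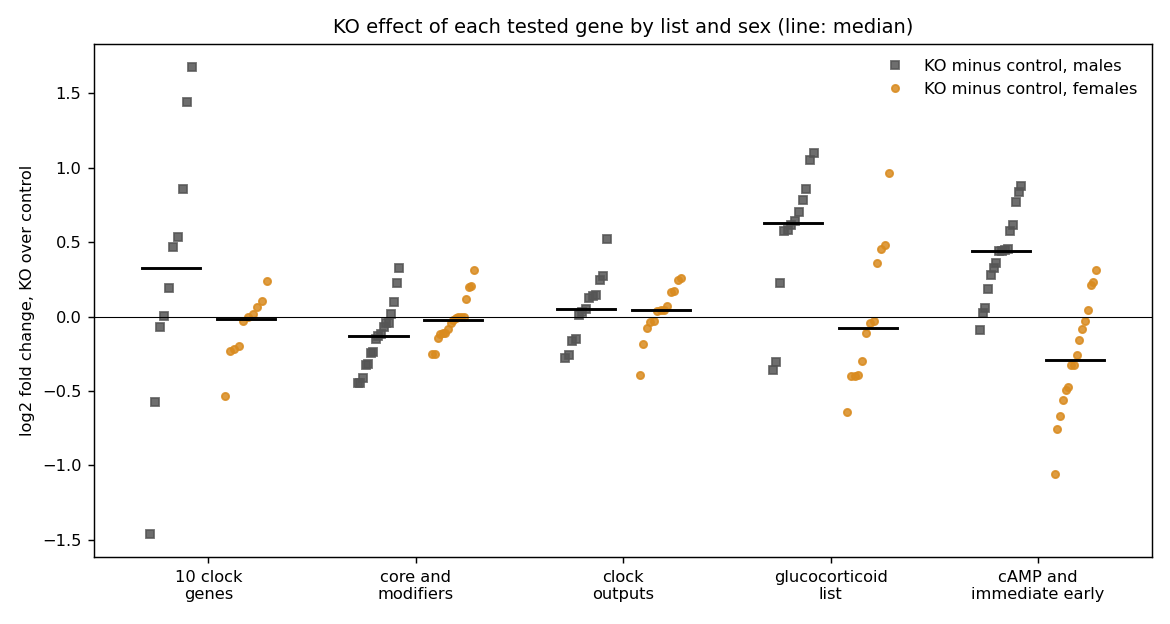
Each point is the log2 fold change of KO over control of 1 tested gene, in males (squares) and in females (circles), for the 10 clock genes, the further core genes, the clock outputs, the glucocorticoid list and the cAMP and immediate early list. Lines are medians, which in the glucocorticoid list are 0.63 in males and -0.08 in females and in the immediate early list 0.44 and -0.29.

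The genes most like Per1, Arntl and Dbp were looked up by Pearson r of log2 CPM over the 8 libraries, among 9897 named genes of at least 5 CPM, as a description. Most like Per1 were Erf (0.945), Irak3 (0.942), Khsrp, Agap2 and Aldh1a2, and most opposite was Pdhb (-0.963), a subunit of pyruvate dehydrogenase, followed by Hmgb3, Pole3, Ddo and Oxct1. Among those most like Arntl were Clip4 and Cpe (0.976 each), Coil and Ccdc80, and most opposite were Car4 (-0.965), Sf3a2, Drc3, Becn1 and Prickle3. Most like Dbp were Ist1 (0.945), Tcap, Cntrl, Plin4 and Firre, and most opposite were Ctsc (-0.931), Perm1, Pdhx, Rab11fip3 and Klhl12.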

How the data were processed

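Raw read counts per gene, in 1 deposited file per library, were made by the authors with STAR and HTSeq on GRCm38, per the submitters' processing notes, which also name DESeq2. Tool versions, annotation release and strand setting of that step are not stated in these sources. Per the labels' protocols, TruSeq stranded mRNA libraries were made from total RNA. Library sizes leave out the 5 summary entries of each file, which stand for no gene. Multiply mapped reads made up 16.8% to 20.3% of all reads, reads in no gene 3.07% to 4.08%, and ambiguous reads 1.26% to 1.38%.

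Symbols (55141 of 55487 identifiers), coordinates and exon lengths came from GENCODE M21 (GRCm38), promoters from RefSeq. Counts were filtered with filterByExpr, scaled by TMM and tested with edgeR 4.0.16 (R 4.3.3), quasi-likelihood, Benjamini-Hochberg over 14695 genes, threshold 0.05. Both sexes and the sex term came from an additive fit of genotype and sex, and single sexes from 1 mean per sex and genotype. CPM uses TMM-scaled library sizes, and log2 CPM a prior count of 2. A count of 0 would allow 0.0793 to 0.122 CPM (3 counts, counting error only). The series' design text calls the samples biological replicates, and p-values measure the spread between these samples. The script was tested on simulated counts.

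The members, gene lists and tests were chosen with earlier results of these data known. Named from the lists were called genes and, per list, the 3 smallest p-values for sex and for KO against control over both sexes. Alternatives were DESeq2 1.42.0, limma 3.58.1 voom, other scalings and filters, a replicate block, no sex term and each library left out. A crossed block, the fit without controls 3 and 4 and the atrial covariate were added after the data were seen. Some genes that this rule names are not reported here.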

Additional observations from a re-analysis of the deposited data

Results flagged for a closer look

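The KO and control values of Per1 were in opposite order in the sexes. The share of all tested genes with such an opposite order was not counted. Both male KO libraries lay above both male controls and both female KO libraries below both female controls, and the male effect minus the female effect was 1.66 on the log2 scale (SE 0.220, edgeR adjusted p = 0.363). The female change alone did not pass either (-0.22, SE 0.154, edgeR adjusted p = 0.978). The difference did not pass over all genes, and it contains the male contrast for which the gene was chosen.

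Arntl in control 3 was the lowest of the 4 controls, at 2.94 CPM against 5.43 to 6.12 CPM in the others, and its gap to the nearest took 0.835 of the range of the group in log2 CPM. It was the only 1 of 20 gene and genotype groups past Dixon's 95% critical value for 4 samples, and chance alone marks about 1 in 20.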

How the results depend on the processing

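In females 0 of the 10 clock genes were called in every setting run, and so in every fit that left out 1 library. Between the sexes 0 were called in all settings but no low count filter, where 2 (Per2 and Ciart) were. Over both sexes 0 were called in all settings but no low count filter, with 5. In males, 1 was called in the fit as reported, 5 by DESeq2, 7 with no low count filter and 3 without controls 3 and 4, a range of 0 to 3 when 1 library was left out, and for the difference between the male and female effects 3 by DESeq2, 3 with no low count filter and 0 to 1 with a library left out. Core and output genes called in males were 2 by DESeq2 and 4 with no low count filter, and between the sexes 0 to 2 with a library left out. Of the 9 relations to Arntl, 0 passed without the 2 farthest libraries, 0 as deviations from the group means and 0 to 5 with a library left out. The RORE core was in 0 promoters when only the 250 bases before the start were searched. The cause of these shifts was not tested.

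Replicate numbers did not pair the animals, since deviations from the genotype means correlated at 0.335, 0.191, -0.213 and 0.122 for numbers 1 to 4. With a replicate block 0 clock genes were called in females, in males and over both sexes, and the log2 fold change of Per1 was 1.47 in males and -0.22 in females. Taken from the sex by genotype means instead, the deviations of same-numbered females correlated at -0.386, a value that numbers 3 and 4 share by construction. With the female numbers crossed in the replicate block 0 clock genes were called in females.

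Directions of small, uncalled values turned in some settings. With 1 library left out, female log2 fold changes ran from -0.441 to 0.102 for Per2, -0.359 to 0.280 for Per3, -0.110 to 0.154 for Cry1, -1.354 to 0.092 for Arntl, -0.125 to 0.079 for Nr1d1 and -0.166 to 0.266 for Dbp. Those of male over female ran from -0.332 to 0.213 for Per1, -0.201 to 0.107 for Per3 and -0.425 to 0.246 for Arntl, and the r of Arntl with Nr1d1 from -0.076 to 0.498. Female Per3 was 0.004 with no low count filter, and Arntl between the sexes 0.046 by limma voom. With 2 animals per sex and genotype and 47 to 177 Arntl reads per library, the female interval of Arntl was wide. Changes of Arntl within that interval are not excluded by these female libraries.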
